A study of Mus musculus with 84 samples.

Results

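The 21 libraries richest and the 21 libraries poorest in Ppp1r1b, out of 84 dissections of mouse ventrolateral striatum, were compared to describe which cell types and neighbouring regions trade places between dissections. Ppp1r1b encodes DARPP-32, a phosphoprotein of medium spiny neurons that dopamine and cyclic AMP regulate. The level of a gene was its count per 1000000 counted reads of the library (CPM), the libraries were chosen by their rank in Ppp1r1b CPM, and Ppp1r1b itself was then left out. The 2 sets are called Ppp1r1b-high and Ppp1r1b-low, and the 42 libraries between them are called the middle libraries. Each library came from 1 naive adult mouse of generation 4 of the SOT and NOT selections for ethanol preference and withdrawal. The labels sort the mice into High Drinker and Low Drinker without saying which selection is which, and no mouse was treated. The tissue was cut by hand from frozen brain, and the RNA was amplified as cDNA before sequencing.

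Most neurons of the striatum are GABAergic medium spiny neurons. Those of the direct pathway carry the dopamine D1 receptor with tachykinin and dynorphin, and those of the indirect pathway carry the D2 receptor and an adenosine receptor with enkephalin. Cholinergic and other interneurons are sparse there. Cortex and claustrum lie on the outer side, amygdala and piriform cortex below, and pallidum, septum and ventricle on the inner side, so a hand-cut block can hold some of each. Cortical projection neurons are glutamatergic and carry the vesicular glutamate transporter Slc17a7 and the transcription factor Tbr1. In bulk RNA, fewer cells of a type and less RNA per cell cannot be told apart.

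Ppp1r1b lay between 1385 and 2630 CPM (median 1618) in the Ppp1r1b-high libraries, between 450 and 1377 CPM (median 756) in the middle libraries, and between 79.9 and 445 CPM (median 297) in the Ppp1r1b-low libraries. At the upper boundary, High Drinker 16 was inside at 1385 CPM and High Drinker 19 outside at 1377 CPM. At the lower boundary, Low Drinker 19 was inside at 445 CPM and High Drinker 41 outside at 450 CPM. These values chose the libraries and carry no test, and neither boundary falls in a gap.

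The Ppp1r1b-high set held 13 High Drinker and 8 Low Drinker mice, and the Ppp1r1b-low set 9 High Drinker and 12 Low Drinker mice. Females numbered 10 in the Ppp1r1b-high and 6 in the Ppp1r1b-low set. Two-sided Fisher's exact tests gave p = 0.354 for line and p = 0.341 for sex (both 0.354 when adjusted over the pair), which does not show that the sets are alike. Totals ran from 26896116 to 34749658 counts in the Ppp1r1b-high and from 27561410 to 36935908 counts in the Ppp1r1b-low libraries (two-sided permutation test of the means, p = 0.107). The numbering in the sample titles falls into 3 sheet sets, which gave 16, 2 and 3 Ppp1r1b-high libraries and 11, 10 and 0 Ppp1r1b-low libraries. The labels do not say that a sheet set is a batch, so counts from a fit with sheet set and sex as terms, or in sheet set 1 alone, are given where they move a printed count for a list by 2 or more. In 5 libraries the median Spearman correlation with the others was more than 3 median absolute deviations low: Low Drinker 8 and High Drinker 17, both Ppp1r1b-high, and Low Drinker 32, 33 and 34, all Ppp1r1b-low.

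**Figure D1:**
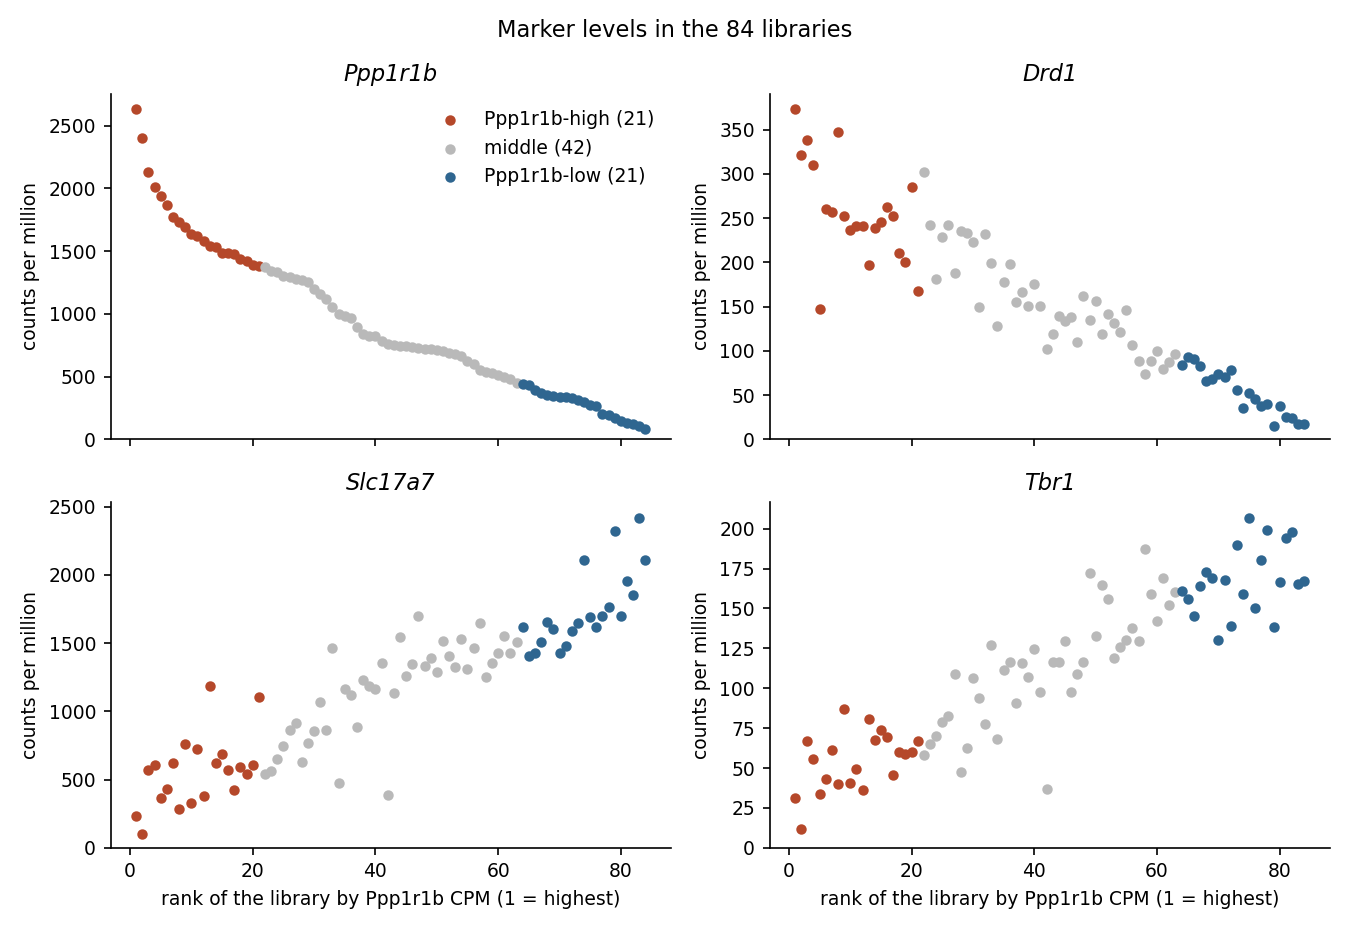
CPM of Ppp1r1b, Drd1, Slc17a7 and Tbr1 in each of the 84 libraries (1 point per library) against the library's rank by Ppp1r1b CPM, with rank 1 the highest and colours for the Ppp1r1b-high, middle and Ppp1r1b-low libraries. Drd1 reached no more than 93.4 CPM in a Ppp1r1b-low library, below every Ppp1r1b-high library, while Slc17a7 and Tbr1 ran the other way.

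The other 3 markers separated the sets without overlap. Drd1, the D1 receptor, ran from 147 to 373 CPM (median 252) in the Ppp1r1b-high libraries and from 14.8 to 93.4 CPM (median 52.8) in the Ppp1r1b-low libraries, a log2 fold change of 2.22 (SE 0.19). Slc17a7 had a median of 569 CPM and a lowest value of 98.8 CPM in the Ppp1r1b-high libraries, and a median of 1655 CPM and a lowest value of 1406 CPM in the Ppp1r1b-low libraries. Its log2 fold change was -1.68 (SE 0.17). Tbr1 ran from 12.1 to 87.2 CPM (median 58.6) in the Ppp1r1b-high libraries and from 130.4 to 207 CPM (median 167) in the Ppp1r1b-low libraries, a log2 fold change of -1.67 (SE 0.13). The markers therefore run with the naming of the sets, and neither set was free of the other's markers.

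Between the sets, 10067 of 16791 tested genes differed at an adjusted p under 0.05, or 60.0% (edgeR quasi-likelihood test with line as covariate). Of these, 5277 were higher (31.4%) and 4790 lower (28.5%) in the Ppp1r1b-high libraries. A difference of at least 2-fold was found for 1404 genes (8.36%), of which 745 were higher (4.44%) and 659 lower (3.92%). The ranges of the sets did not overlap for 758 genes (4.51%), 484 of them higher and 274 lower. Since Ppp1r1b picked the sets, these counts and the fold changes below are a description. Counts of called list members below stand against these shares of all genes. Where a list's share is near them, its count says little about the list. A test was made in the 42 middle libraries, as the slope of each gene's log2 level on log2 Ppp1r1b CPM, where a slope near 1 means that the gene doubles when Ppp1r1b doubles.

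In the middle libraries, 4928 of 16981 tested genes followed Ppp1r1b (29%, edgeR, adjusted p under 0.05), 2361 with a positive slope (13.9%) and 2567 with a negative slope (15.1%). Of the 16725 genes tested both ways, 4557 were called both ways, which is 45.5% of the calls between the sets and 93.1% of the calls in the middle libraries. All 4557 had the same direction. Of the 1371 genes at least 2-fold apart between the sets, 81.7% were called in the middle libraries in the same direction and 0 in the opposite direction. Within sheet set 1 alone 2544 genes were called in the middle libraries, and within sheet set 2 alone 2267. In High Drinker 11, a middle library with the lowest total (22190363 counts), the gene Gm42418 took 10.2% of the counts, against at most 1.84% for the top gene of any other library. Without it 4906 genes were called.

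**Figure D2:**
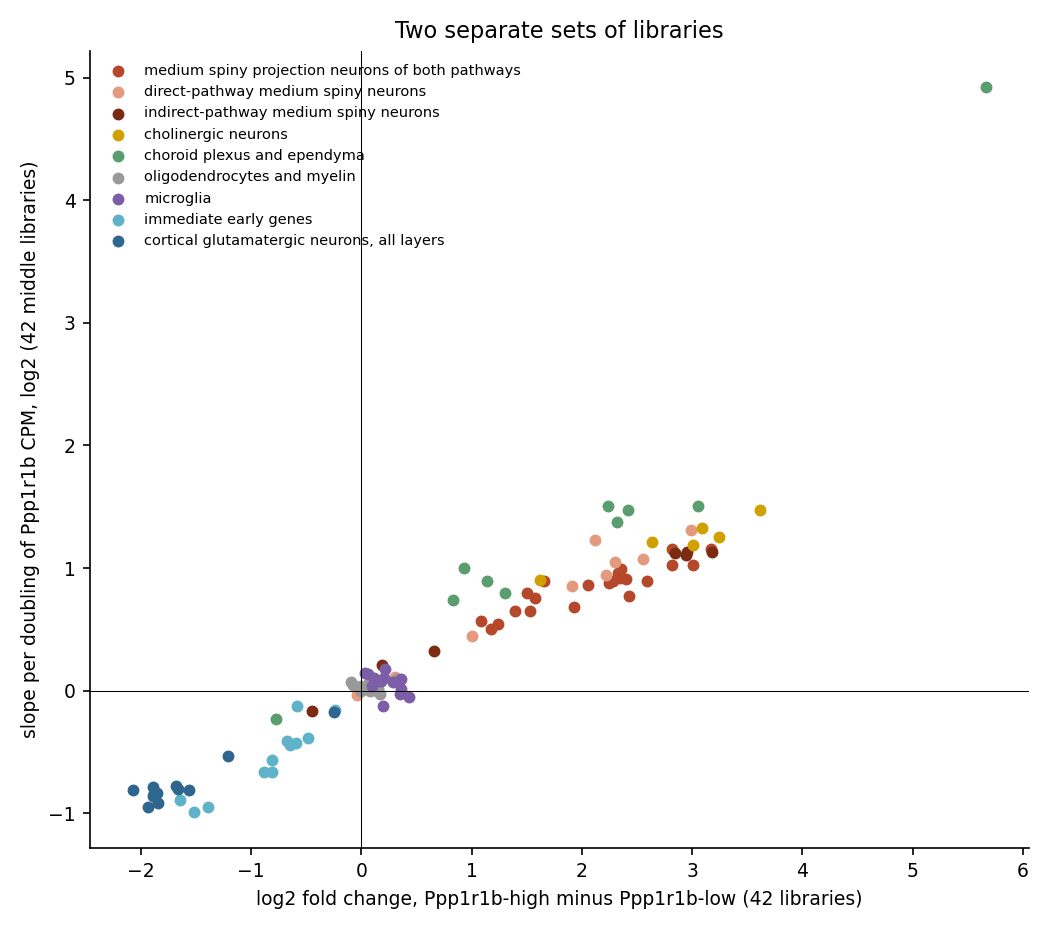
Each point is 1 gene of 9 lists, coloured by list. The horizontal axis is the log2 fold change of Ppp1r1b-high over Ppp1r1b-low libraries, and the vertical axis is the slope per doubling of Ppp1r1b over the 42 middle libraries. Most medium spiny and cholinergic genes lie at the upper right and cortical glutamatergic genes at the lower left, and the far point at 5.67 and 4.92 is Ttr. The direct-pathway gene Eya1 and the indirect-pathway gene Grik3 lie left of 0, at -0.04 and -0.45.

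Genes of medium spiny neurons were higher in the Ppp1r1b-high libraries as a block. All 22 tested members of the list for both pathways were higher, all of them at least 2-fold, with a median log2 fold change of 2.26 against 0.03 over all genes. All 22 rose with Ppp1r1b in the middle libraries, also with sheet set and sex as terms. The summed level of the list was 10450 to 21130 CPM in the Ppp1r1b-high libraries and 1824 to 5540 CPM in the Ppp1r1b-low libraries, so the sets did not overlap.

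Rgs9, which speeds the end of dopamine receptor signals, ran from 406 to 796 CPM (median 522) in the Ppp1r1b-high libraries and from 10.6 to 154 CPM (median 83) in the Ppp1r1b-low libraries, with no overlap. Its log2 fold change was 2.59 (SE 0.21), and its middle slope was 0.9 (SE 0.05, edgeR adjusted p = 6.99e-18). Ido1, indoleamine 2,3-dioxygenase, and Syndig1l, a synaptic membrane protein, had the 2 largest log2 fold changes of the list, at 3.17 (SE 0.24) and 3.0 (SE 0.27). The smallest were those of the transcription factors Meis2 (1.08, SE 0.12), Foxp1 (1.17, SE 0.08) and Bcl11b (1.24, SE 0.13), which other forebrain neurons also express.

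Of 9 tested direct-pathway genes, 8 were higher in the Ppp1r1b-high libraries, and the same 8 rose with Ppp1r1b in the middle libraries, 7 with sheet set and sex as terms. Means are given ± SD over the 21 libraries of each set. Tac1, the substance P precursor, averaged 217 ± 47.9 CPM in the Ppp1r1b-high libraries and 42.5 ± 24.8 CPM in the Ppp1r1b-low libraries. Pdyn, the dynorphin precursor, averaged 182 ± 53.1 CPM in the Ppp1r1b-high libraries and 40.6 ± 17 CPM in the Ppp1r1b-low libraries. The middle slope was 0.94 (SE 0.07, edgeR adjusted p = 7.68e-14) for Drd1 and 1.23 (SE 0.19, edgeR adjusted p = 3.39e-06) for Pdyn. Isl1, a transcription factor of direct-pathway and cholinergic neurons, had a log2 fold change of 2.99 (SE 0.31). The exception was Eya1, a transcriptional coactivator, which averaged 8.44 ± 1.43 CPM in the Ppp1r1b-high libraries and 8.14 ± 1.78 CPM in the Ppp1r1b-low libraries and passed neither comparison.

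Of 7 tested indirect-pathway genes, 6 were higher and 1 lower in the Ppp1r1b-high libraries, and 5 rose with Ppp1r1b in the middle libraries. Penk, the enkephalin precursor, ran from 1242 to 2391 CPM (median 1427) in the Ppp1r1b-high libraries and from 28.6 to 382 CPM (median 165) in the Ppp1r1b-low libraries. Adora2a, an adenosine receptor, ran from 224 to 506 CPM (median 319) in the Ppp1r1b-high libraries and from 1.84 to 74.7 CPM (median 34.1) in the Ppp1r1b-low libraries. The sets lay apart for both. The middle slope was 1.13 (SE 0.04, edgeR adjusted p = 5.76e-24) for Adora2a and 1.14 (SE 0.05, edgeR adjusted p = 8.38e-23) for the D2 receptor Drd2. The lower gene was Grik3, a kainate receptor subunit, which averaged 168 ± 27.3 CPM in the Ppp1r1b-high libraries and 223 ± 37.1 CPM in the Ppp1r1b-low libraries. The log2 fold changes of Gpr6, Penk, Drd2 and Adora2a, at 2.84 to 3.18, were above those of Drd1, Tac1 and Pdyn, at 2.12 to 2.3, a difference that was not tested. It does not hold for the lists as wholes. The direct-pathway gene Isl1, at 2.99, lay within the range of the former, Slc35d3 lay at 2.55, and the indirect-pathway gene Grik3 lay at -0.45.

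Striosome genes were mixed, with 4 of 6 higher and 1 lower in the Ppp1r1b-high libraries. In the middle libraries 2 rose with Ppp1r1b, and 0 did with sheet set and sex as terms. Oprm1, the mu opioid receptor that marks striosomes, averaged 5.57 ± 2.65 CPM in the Ppp1r1b-high libraries and 2.67 ± 1.62 CPM in the Ppp1r1b-low libraries. Khdrbs3, an RNA-binding protein, was lower, with a log2 fold change of -1.02 (SE 0.09) and a middle slope of -0.44 (SE 0.08, edgeR adjusted p = 6.66e-05).

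All 7 tested genes of the accumbens, olfactory tubercle and islands of Calleja were higher in the Ppp1r1b-high libraries, and all 7 rose with Ppp1r1b in the middle libraries. With sheet set and sex as terms, 6 of 7 were called in each comparison. Dlk1, a membrane protein of the Notch ligand family, ran from 24 to 104 CPM (median 52.3) in the Ppp1r1b-high libraries and from 0.572 to 32.2 CPM (median 3.72) in the Ppp1r1b-low libraries, so the sets overlapped. Drd3, the D3 receptor of the islands of Calleja, averaged 3.38 ± 1.49 CPM in the Ppp1r1b-high libraries and 0.504 ± 0.675 CPM in the Ppp1r1b-low libraries. Calcr, the calcitonin receptor, averaged 3.63 ± 2.31 CPM in the Ppp1r1b-high libraries and 0.117 ± 0.203 CPM in the Ppp1r1b-low libraries, and had a middle slope of 2.85 (SE 0.57, edgeR adjusted p = 1.20e-04).

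The 6 tested genes of cholinergic neurons were all higher in the Ppp1r1b-high libraries, with a median log2 fold change of 3.05. Chat, which makes acetylcholine, ran from 13.2 to 45.9 CPM (median 20.6) in the Ppp1r1b-high libraries and from 0.174 to 6.56 CPM (median 2.49) in the Ppp1r1b-low libraries. Slc5a7, the choline transporter, ran from 12.3 to 59.7 CPM (median 29.4) in the Ppp1r1b-high libraries and from 0.798 to 10.3 CPM (median 3.66) in the Ppp1r1b-low libraries. Neither gene's sets overlapped. Lhx8, a homeobox factor of cholinergic and pallidal lineages, had a log2 fold change of 3.61 (SE 0.31) and a middle slope of 1.47 (SE 0.19, edgeR adjusted p = 7.77e-08). Slc18a3, the vesicular acetylcholine transporter, lies inside Chat, so their reads may not be fully separate. Ngfr, a neurotrophin receptor, was the 1 member whose middle slope was not called, at 0.9 (SE 0.39, edgeR adjusted p = 0.0795). Cholinergic neurons also sit in the basal forebrain beside the striatum, and these genes do not tell the sites apart.

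Of 8 genes of GABA synthesis, transport and GABAergic identity, 5 were higher and 0 lower in the Ppp1r1b-high libraries, and the same 5 rose with Ppp1r1b in the middle libraries. Slc32a1, the vesicular GABA transporter, averaged 263 ± 35 CPM in the Ppp1r1b-high libraries and 99.4 ± 21 CPM in the Ppp1r1b-low libraries. Dlx6 (2.2, SE 0.14) and Dlx5 (1.41, SE 0.13), homeobox factors of forebrain GABAergic neurons, were higher by log2 fold change than the GABA-synthesising enzyme Gad1 (0.75, SE 0.09).

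Of 13 tested interneuron genes, 4 were higher (30.8%, against 31.4% of all genes) and 5 lower (38.5%, against 28.5%) in the Ppp1r1b-high libraries. The peptide Vip ran from 2.71 to 18.5 CPM (median 10.4) in the Ppp1r1b-high libraries and from 28.4 to 53.3 CPM (median 39) in the Ppp1r1b-low libraries, with no overlap. The peptide Cck, which cortical projection neurons also make, had a log2 fold change of -1.68 (SE 0.18), and the calcium buffer Pvalb one of -1.16 (SE 0.18). Higher were Chodl (1.26, SE 0.14), a marker of long-range nitric oxide neurons, and Pthlh (0.92, SE 0.1), found in striatal interneurons. The peptides Sst and Npy passed neither comparison: Sst averaged 222 ± 44.4 CPM in the Ppp1r1b-high libraries and 201 ± 37.1 CPM in the Ppp1r1b-low libraries, and Npy averaged 74 ± 15 CPM in the Ppp1r1b-high libraries and 78.6 ± 14.1 CPM in the Ppp1r1b-low libraries.

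**Figure D3:**
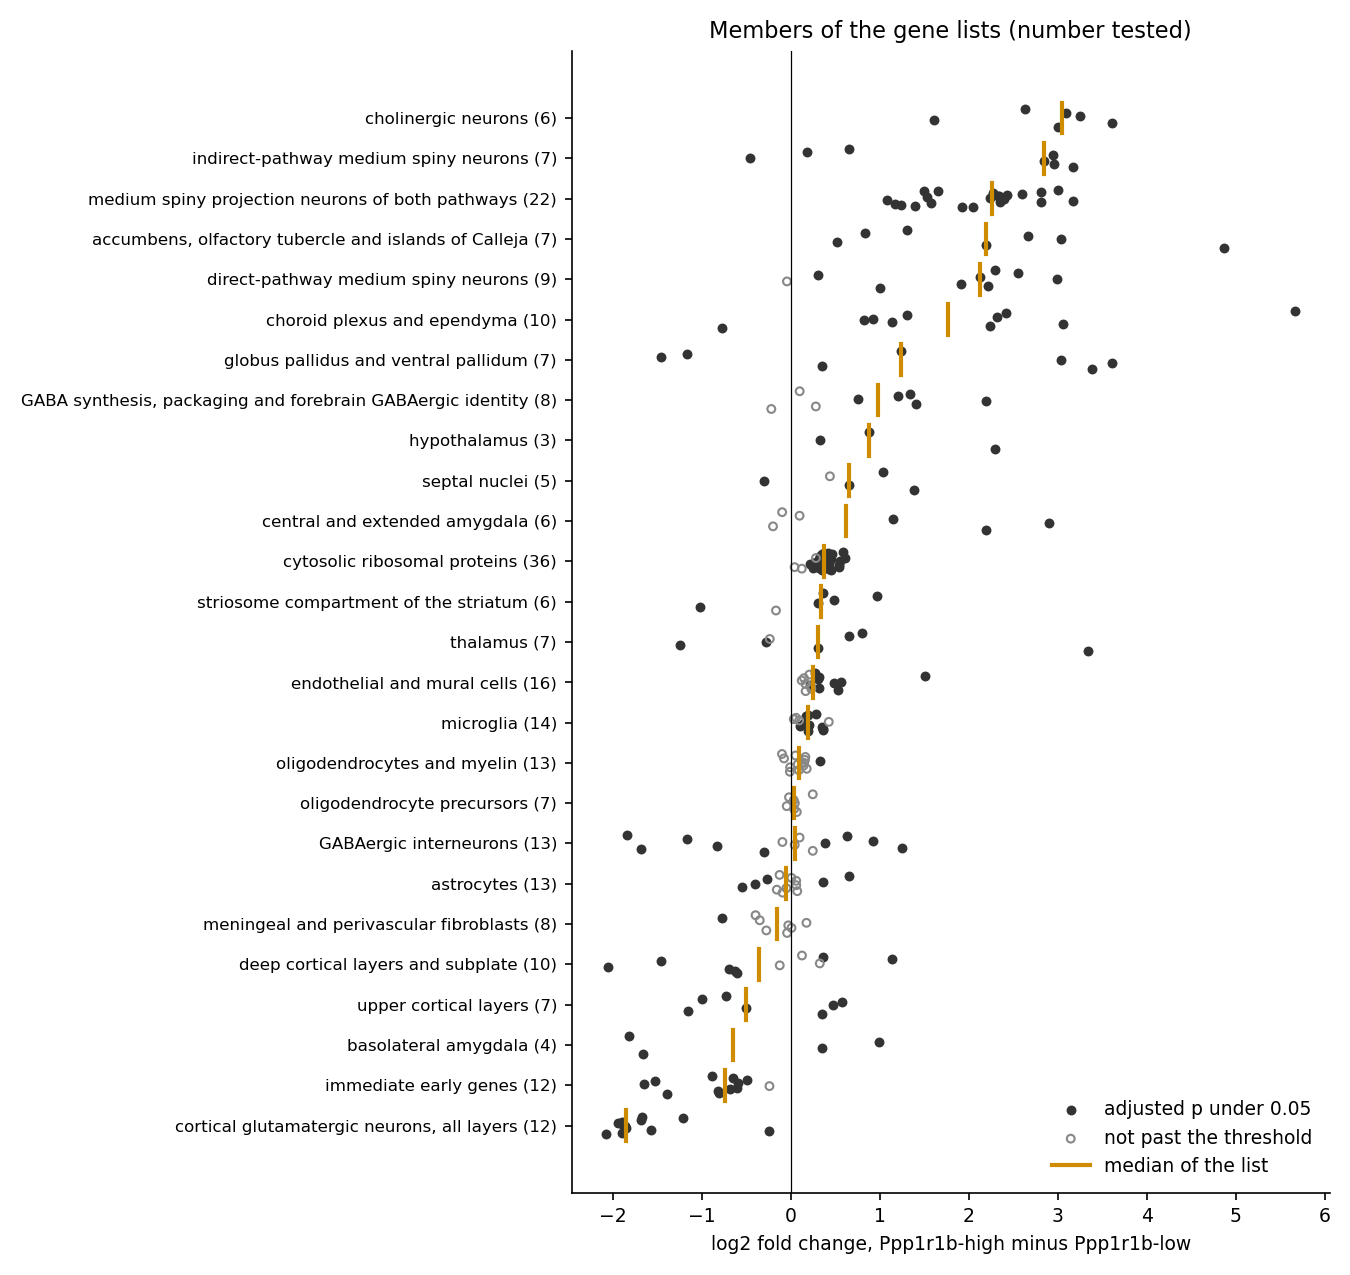
Log2 fold change of Ppp1r1b-high over Ppp1r1b-low libraries for the tested members of the gene lists, 1 point per gene, filled where the adjusted p was under 0.05 and open where it was not, with a bar at each list's median. The medium spiny and cholinergic lists have medians of 2.12 to 3.05, the cortical glutamatergic list a median of -1.85, and the oligodendrocyte list a median of 0.09.

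Cortical glutamatergic neurons stood on the other side. All 12 genes of the list were lower in the Ppp1r1b-high libraries, 11 of them at least 2-fold, with a median log2 fold change of -1.85. All 12 fell with Ppp1r1b in the middle libraries, and 11 with sheet set and sex as terms. The summed level was 651 to 2437 CPM in the Ppp1r1b-high libraries and 3018 to 4794 CPM in the Ppp1r1b-low libraries, with no overlap. Neurod6, a factor of cortical projection neurons, averaged 27.1 ± 10.4 CPM in the Ppp1r1b-high libraries and 97 ± 20.4 CPM in the Ppp1r1b-low libraries. The middle slope was -0.78 (SE 0.12, edgeR adjusted p = 2.96e-06) for Slc17a7 and -0.8 (SE 0.12, edgeR adjusted p = 8.00e-07) for Tbr1. The largest log2 fold change of the list was that of Bhlhe22 (-2.07, SE 0.19) and the smallest that of the potassium channel Kcnh3 (-0.25, SE 0.07).

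Layer genes did not move as a block. Of 7 upper-layer genes, 3 were higher and 4 lower in the Ppp1r1b-high libraries, with Plxnd1, a semaphorin receptor (0.58, SE 0.1), against Cux2, a homeobox factor (-1.15, SE 0.14). Of 10 deep-layer genes, 2 were higher and 5 lower. Fezf2, which specifies subcerebral projection neurons, averaged 11.3 ± 4.61 CPM in the Ppp1r1b-high libraries and 46.9 ± 15.4 CPM in the Ppp1r1b-low libraries. Syt6, a synaptotagmin listed for layer 6, lay the other way: it ran from 120.0 to 212 CPM (median 157) in the Ppp1r1b-high libraries and from 36.6 to 99.5 CPM (median 67.5) in the Ppp1r1b-low libraries, with no overlap and a middle slope of 0.5 (SE 0.07, edgeR adjusted p = 4.53e-07).

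Regions on the outer and lower side were mixed. Of 7 claustrum and insula genes, 3 were higher and 3 lower in the Ppp1r1b-high libraries, or 42.9% each, against 31.4% and 28.5% of all genes. Slc30a3, the synaptic zinc transporter, averaged 32.9 ± 17.3 CPM in the Ppp1r1b-high libraries and 127 ± 32.9 CPM in the Ppp1r1b-low libraries. Nr4a2, a defining factor of the claustrum, ran from 9.93 to 73.3 CPM in the Ppp1r1b-high libraries and from 9.14 to 89.9 CPM in the Ppp1r1b-low libraries and passed neither comparison. Of 4 basolateral amygdala genes, the Wnt agonist Rspo2 (-1.82, SE 0.15) and the retinoic acid hydroxylase Cyp26b1 (-1.66, SE 0.22) were lower, and Otof (0.99, SE 0.16) and Lmo3 (0.36, SE 0.15) higher, of which Lmo3 was not called without the 5 libraries that stood apart. Rspo2 and Cyp26b1 also fell with Ppp1r1b in the middle libraries, with slopes of -0.94 (SE 0.18, edgeR adjusted p = 6.43e-05) and -1.25 (SE 0.29, edgeR adjusted p = 7.86e-04). In the hippocampal list of 6, 3 were higher and 2 lower (2 and 3 with sheet set and sex as terms, 1 and 2 in sheet set 1 alone), and the peptide Grp had a log2 fold change of -2.86 (SE 0.26).

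On the inner side, single pallidal genes differed widely while the summed levels of the lists overlapped. Of 7 pallidal genes, 5 were higher and 2 lower, and 5 rose with Ppp1r1b in the middle libraries. The largest log2 fold change of the list, 3.61, was that of Lhx8, which is also counted in the cholinergic list, so it is not separate evidence for the pallidum. The summed level of the list was 61.4 to 169 CPM in the Ppp1r1b-high libraries and 65 to 128 CPM in the Ppp1r1b-low libraries, with a median of 88.8 CPM in the Ppp1r1b-high and 84.4 CPM in the Ppp1r1b-low libraries. Nkx2-1, a homeobox factor of the pallidal lineage, ran from 2.45 to 9.86 CPM (median 4.47) in the Ppp1r1b-high libraries and from 0.12 to 1.44 CPM (median 0.423) in the Ppp1r1b-low libraries, with no overlap. Gbx1, a homeobox factor, ran from 0.199 to 12.1 CPM (median 1.84) in the Ppp1r1b-high libraries and from 0.0302 to 0.725 CPM (median 0.286) in the Ppp1r1b-low libraries, with overlap. Npas1, which pallidal neurons and cortical interneurons express, was lower (-1.45, SE 0.17). Of 5 septal genes, 3 were higher and 1 lower, but 1 was higher with sheet set and sex as terms and 1 in sheet set 1 alone, the urocortin receptor Crhr2 (1.38, SE 0.16). The summed septal level was 15 to 92.4 CPM in the Ppp1r1b-high libraries and 20.9 to 44.9 CPM in the Ppp1r1b-low libraries, with overlap.

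In the central amygdala list, below the striatum, the summed level was 211 to 435 CPM in the Ppp1r1b-high libraries and 186 to 363 CPM in the Ppp1r1b-low libraries, with overlap. Of 6 central amygdala genes, 3 were higher, namely Nts (2.9, SE 0.35), Cartpt (2.19, SE 0.33) and Prkcd (1.15, SE 0.22), and 2 of these rose in the middle libraries. Cartpt is also counted in the list of accumbens, olfactory tubercle and islands of Calleja, so it is not separate evidence for the amygdala. Prkcd reached 298.5 CPM in the middle library Low Drinker 2, which also held the highest thalamic sum. Whether the reads of Prkcd came from amygdala or another region was not tested.

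More distant regions varied by library, and the highest thalamic and hypothalamic sums were in a middle library. Low Drinker 2 held 518 CPM for the thalamic and 353 CPM for the hypothalamic list. No library of the Ppp1r1b-high or Ppp1r1b-low set held more than 126 and 49.7 CPM. A count of 0 called slopes therefore does not show that such tissue was absent. Of 7 thalamic genes, 4 were higher (57.1%, against 31.4% of all genes) and 2 lower (28.6%, against 28.5%) in the Ppp1r1b-high libraries. In the middle libraries 0 were called. The summed thalamic level ran the other way, with a median of 72.9 CPM in the Ppp1r1b-high and 90.1 CPM in the Ppp1r1b-low libraries. Of 3 tested hypothalamic genes, 3 were higher, 0 were higher in sheet set 1 alone, and 0 were called in the middle libraries. Of 5 tested genes of midbrain dopamine neurons, 3 were higher and 2 rose in the middle libraries, among them the vesicular monoamine transporter Slc18a2 (2.21, SE 0.37).

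Of 10 tested genes of choroid plexus and ependyma, 9 were higher in the Ppp1r1b-high libraries and 1, the water channel Aqp1, lower, with a median log2 fold change of 1.77. In sheet set 1 alone 7 were higher. The same 9 rose with Ppp1r1b in the middle libraries, and 6 did with sheet set and sex as terms. Clic6, an intracellular chloride channel, ran from 12.9 to 30.9 CPM (median 21.6) in the Ppp1r1b-high libraries and from 0.139 to 7.01 CPM (median 1.73) in the Ppp1r1b-low libraries. Foxj1, which drives motile cilia, averaged 9.21 ± 3.88 CPM in the Ppp1r1b-high libraries and 4.94 ± 2.46 CPM in the Ppp1r1b-low libraries, and was not called in sheet set 1 alone. Ttr, transthyretin, rested on few libraries: its median was 0.461 CPM in the Ppp1r1b-high libraries, Low Drinker 8 held 114 CPM, and the highest Ppp1r1b-low library held 1.15 CPM. Its log2 fold change was 5.67, and 4.33 without the 5 libraries that stood apart. In the Ppp1r1b-high library High Drinker 40, Ttr stood at 0 CPM, while Clic6 was at least 12.9 CPM in every library of that set. Clic6 and Ttr thus did not run together in every library, and which cells gave the Clic6 reads was not tested.

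**Figure D4:**
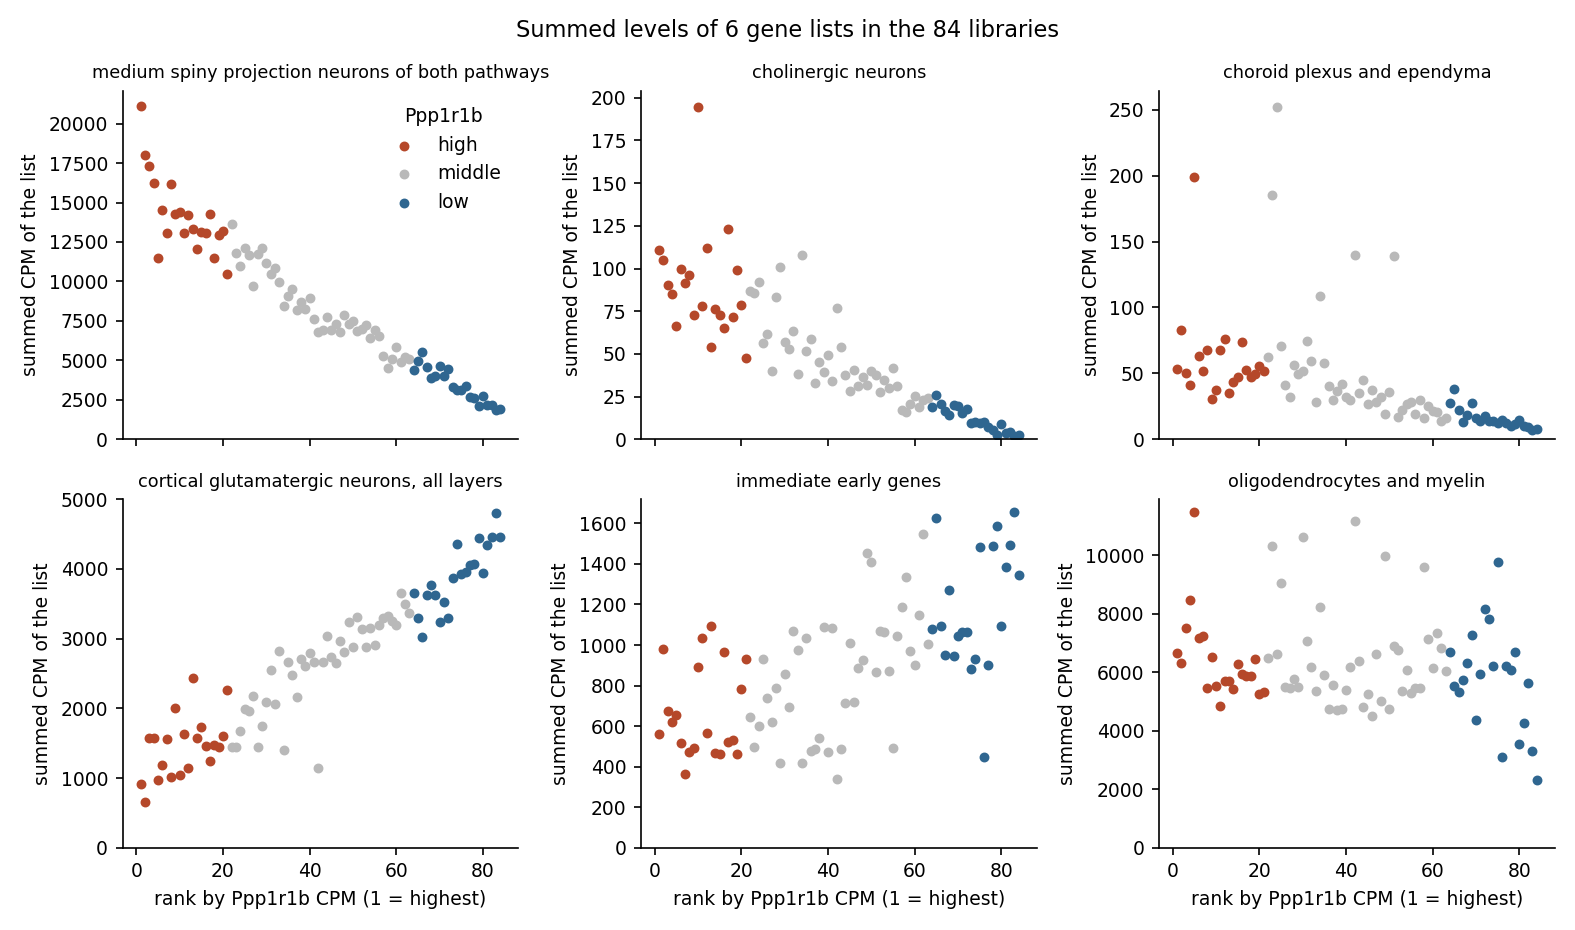
Summed CPM of 6 gene lists in each of the 84 libraries (1 point per library) against rank by Ppp1r1b CPM, with rank 1 the highest. The medium spiny sum is 10450 CPM or more in the Ppp1r1b-high libraries and 5540 CPM or less in the Ppp1r1b-low libraries, and the cortical glutamatergic sum runs the other way, while the oligodendrocyte sums of the sets overlap.

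Glial genes differed little. Of 13 oligodendrocyte genes, 1 was higher and 0 lower in the Ppp1r1b-high libraries, and 0 were called in the middle libraries. Mbp, myelin basic protein, averaged 2673 ± 807 CPM in the Ppp1r1b-high libraries and 2379 ± 777 CPM in the Ppp1r1b-low libraries. The summed level of the list was 4850 to 11470 CPM in the Ppp1r1b-high libraries and 2323 to 9778 CPM in the Ppp1r1b-low libraries, so libraries within a set differed widely. Of 7 precursor genes, 0 passed between the sets and 1 in the middle libraries. Of 13 astrocyte genes, 2 were higher and 3 lower, led by the bicarbonate transporter Slc4a4 (0.65, SE 0.1). Of 6 regional astrocyte genes, 3 were higher and 1 lower, led by angiotensinogen, Agt, which ran from 3.25 to 49.4 CPM (median 6.89) in the Ppp1r1b-high libraries and from 2.03 to 4.48 CPM (median 3.34) in the Ppp1r1b-low libraries.

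Microglial, vascular and ribosomal genes were higher in the Ppp1r1b-high libraries in many cases, by small amounts. Of 14 microglial genes, 10 were higher and 0 lower (median log2 fold change 0.2), and 1 was called in the middle libraries. With sheet set and sex as terms 8 were higher, and in sheet set 1 alone 6. Of 16 endothelial and mural genes, 9 were higher and 0 lower, and 2 were called in the middle libraries. With sheet set and sex as terms 5 were higher, and in sheet set 1 alone 6. Tagln, a smooth muscle actin-binding protein, averaged 11.8 ± 3.86 CPM in the Ppp1r1b-high libraries and 4.03 ± 1.27 CPM in the Ppp1r1b-low libraries, whereas the smooth muscle genes Acta2 and Myh11 had log2 fold changes of 0.54 (SE 0.21) and 0.57 (SE 0.19), and neither was called with sheet set and sex as terms. Of 36 ribosomal protein genes, 33 were higher and 0 lower, with a median of 0.37; 31 were higher in sheet set 1 alone, and 8 rose with Ppp1r1b in the middle libraries. Of 34 oxidative phosphorylation genes, 17 were higher and 1 lower, and with sheet set and sex as terms 21 were higher and 0 lower. Of 8 meningeal genes, 0 were higher and 1 lower, and 0 were lower with sheet set and sex as terms. Of 5 red cell genes 3 were higher, 1 with those terms and 0 in sheet set 1 alone.

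Immediate early genes, which neuronal activity induces, were lower in the Ppp1r1b-high libraries in 11 of 12 cases, with a median log2 fold change of -0.74. Fos, a transcription factor subunit, ran from 3.38 to 29.2 CPM (median 8.91) in the Ppp1r1b-high libraries and from 8.63 to 62 CPM (median 42) in the Ppp1r1b-low libraries, a log2 fold change of -1.65 (SE 0.23). Arc, a protein of synaptic plasticity, ran from 40.4 to 221 CPM (median 91) in the Ppp1r1b-high libraries and from 63.5 to 610.5 CPM (median 243) in the Ppp1r1b-low libraries. The sets overlapped for all 12 genes. In the middle libraries 7 of 12 fell with Ppp1r1b, but with sheet set and sex as terms 1 did, Ier2 (edgeR adjusted p = 0.00705). Between the sets, 10 of 12 were lower with those terms and 9 of 12 in sheet set 1 alone. The part of sheet set in these genes was not tested further.

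Promoters are shown for Gpr6, an indirect-pathway receptor that was higher in the Ppp1r1b-high libraries, and for the immediate early genes Btg2 and Dusp1, which were lower, because these 3 hold a full cyclic AMP response element. Of 53 genes with a window in the medium spiny, cholinergic, cortical glutamatergic and immediate early lists, no other did. Each window is RefSeq sequence of build GRCm38.p6, from 250 bases before to 50 bases after the start of the gene, on the strand of the gene, with the motif TGACGTCA in capitals. They lie on the minus strand at chr10:41072241-41072540, chr1:134079106-134079405 and chr17:26508423-26508722, in the order below.
Gpr6: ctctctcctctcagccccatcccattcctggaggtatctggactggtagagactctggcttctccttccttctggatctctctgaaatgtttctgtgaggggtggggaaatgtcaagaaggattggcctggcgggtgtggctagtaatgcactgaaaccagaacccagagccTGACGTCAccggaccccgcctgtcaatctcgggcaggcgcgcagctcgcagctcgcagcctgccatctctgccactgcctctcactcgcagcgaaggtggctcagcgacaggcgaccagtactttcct
Btg2: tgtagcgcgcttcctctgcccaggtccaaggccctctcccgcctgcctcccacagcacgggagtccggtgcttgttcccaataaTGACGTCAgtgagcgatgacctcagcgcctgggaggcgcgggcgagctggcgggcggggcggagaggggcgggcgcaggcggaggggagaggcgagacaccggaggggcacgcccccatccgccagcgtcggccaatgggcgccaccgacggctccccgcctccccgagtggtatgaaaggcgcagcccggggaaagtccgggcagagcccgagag
Dusp1: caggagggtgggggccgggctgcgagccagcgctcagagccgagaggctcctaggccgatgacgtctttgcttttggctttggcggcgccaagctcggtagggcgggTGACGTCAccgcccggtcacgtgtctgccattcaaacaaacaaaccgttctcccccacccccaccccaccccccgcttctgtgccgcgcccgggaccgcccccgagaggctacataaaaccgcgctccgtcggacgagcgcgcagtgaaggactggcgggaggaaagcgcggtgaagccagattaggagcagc
The motif, which is its own reverse complement, starts 78 bases before the start of Gpr6, 166 before that of Btg2 and 143 before that of Dusp1. Counted per gene, it is in the windows of 2.03% of 27025 genes, of 1.42% of the 492 genes at least 2-fold higher in the Ppp1r1b-high libraries, of 1.35% of the 445 genes at least 2-fold lower, and of 5.66% of the 53 list genes, which are 3 genes. A match is a description and not a site. Gpr6 ran from 52.4 to 122 CPM (median 73.4) in the Ppp1r1b-high libraries and from 0.555 to 20.6 CPM (median 9.12) in the Ppp1r1b-low libraries, with no overlap. Dusp1, a phosphatase of MAP kinases, ran from 16.3 to 39.1 CPM (median 23.1) in the Ppp1r1b-high libraries and from 19 to 77.2 CPM (median 39.8) in the Ppp1r1b-low libraries. Btg2, an antiproliferative factor, ran from 5.92 to 24.9 CPM (median 9.51) in the Ppp1r1b-high libraries and from 8.8 to 29.6 CPM (median 19.1) in the Ppp1r1b-low libraries. Genes with the same element thus lay on both sides.

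Families of signalling proteins held genes on both sides, in shares that differed from list to list. Of all genes, 31.4% were higher and 28.5% lower. Of 23 genes of cyclic AMP signalling, 10 were higher (43.5%) and 12 lower (52.2%) in the Ppp1r1b-high libraries. Adcy5, the main adenylyl cyclase of striatum, ran from 1129 to 2193 CPM in the Ppp1r1b-high libraries and from 168 to 623 CPM in the Ppp1r1b-low libraries. Adcy1, a calcium-stimulated cyclase, ran from 204 to 593 CPM in the Ppp1r1b-high libraries and from 736 to 1307 CPM in the Ppp1r1b-low libraries. Neither cyclase overlapped between the sets. The stimulatory G protein subunit Gnal of striatum had a log2 fold change of 1.57 (SE 0.11), and the widely expressed Gnas one of -0.6 (SE 0.07). Among phosphodiesterases, Pde10a (2.4, SE 0.2), Pde1b (2.24, SE 0.13) and Pde7b (1.99, SE 0.16) were higher, and Pde1a (-1.01, SE 0.09) and Pde4a (-0.69, SE 0.06) lower. Of 16 RGS genes, which shorten G protein signals, 9 were higher and 4 lower, with Rgs10 (1.33, SE 0.07) and Rgs8 (1.18, SE 0.06) against Rgs6 (-0.99, SE 0.08).

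Of 40 potassium channel genes, 10 were higher and 23 lower in the Ppp1r1b-high libraries. Kcnip2, an auxiliary subunit of A-type channels, averaged 381 ± 59.6 CPM in the Ppp1r1b-high libraries and 130.4 ± 19.4 CPM in the Ppp1r1b-low libraries. Kcnj6, a G protein-gated rectifier, averaged 7.4 ± 2.9 CPM in the Ppp1r1b-high libraries and 23.2 ± 4.68 CPM in the Ppp1r1b-low libraries. The inward rectifier Kcnj2 (1.34, SE 0.12) and the voltage-gated Kcna5 (1.89, SE 0.23) were higher as well, and Kcnj3 (-1.52, SE 0.1), Kcnh7 (-1.58, SE 0.12) and Kcnc4 (-1.32, SE 0.12) lower. All 7 of these had a called middle slope of the same direction.

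Of 23 glutamate receptor genes, 7 were higher and 10 lower in the Ppp1r1b-high libraries. Grm2, a presynaptic metabotropic receptor, ran from 3.78 to 32.6 CPM (median 11.6) in the Ppp1r1b-high libraries and from 35.4 to 121 CPM (median 68.2) in the Ppp1r1b-low libraries, a log2 fold change of -2.58 (SE 0.2). Grik2 (1.07, SE 0.08) and Grm4 (1.06, SE 0.08) were higher. The share higher, 30.4%, is near that of all genes (31.4%), and the share lower, 43.5%, is above that of all genes (28.5%). Of 14 GABA-A subunits, 5 were higher and 5 lower, or 35.7% each, not far from the shares of all genes, with Gabrd of extrasynaptic receptors (0.93, SE 0.06) against Gabra3 (-1.08, SE 0.08). Of 10 muscarinic, opioid and cannabinoid receptors, 5 were higher and 4 lower (2 lower with sheet set and sex as terms), with the kappa opioid receptor Oprk1 (1.5, SE 0.16) and the muscarinic receptor Chrm4 (1.0, SE 0.07) against Chrm3 (-1.29, SE 0.1).

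**Figure D5:**
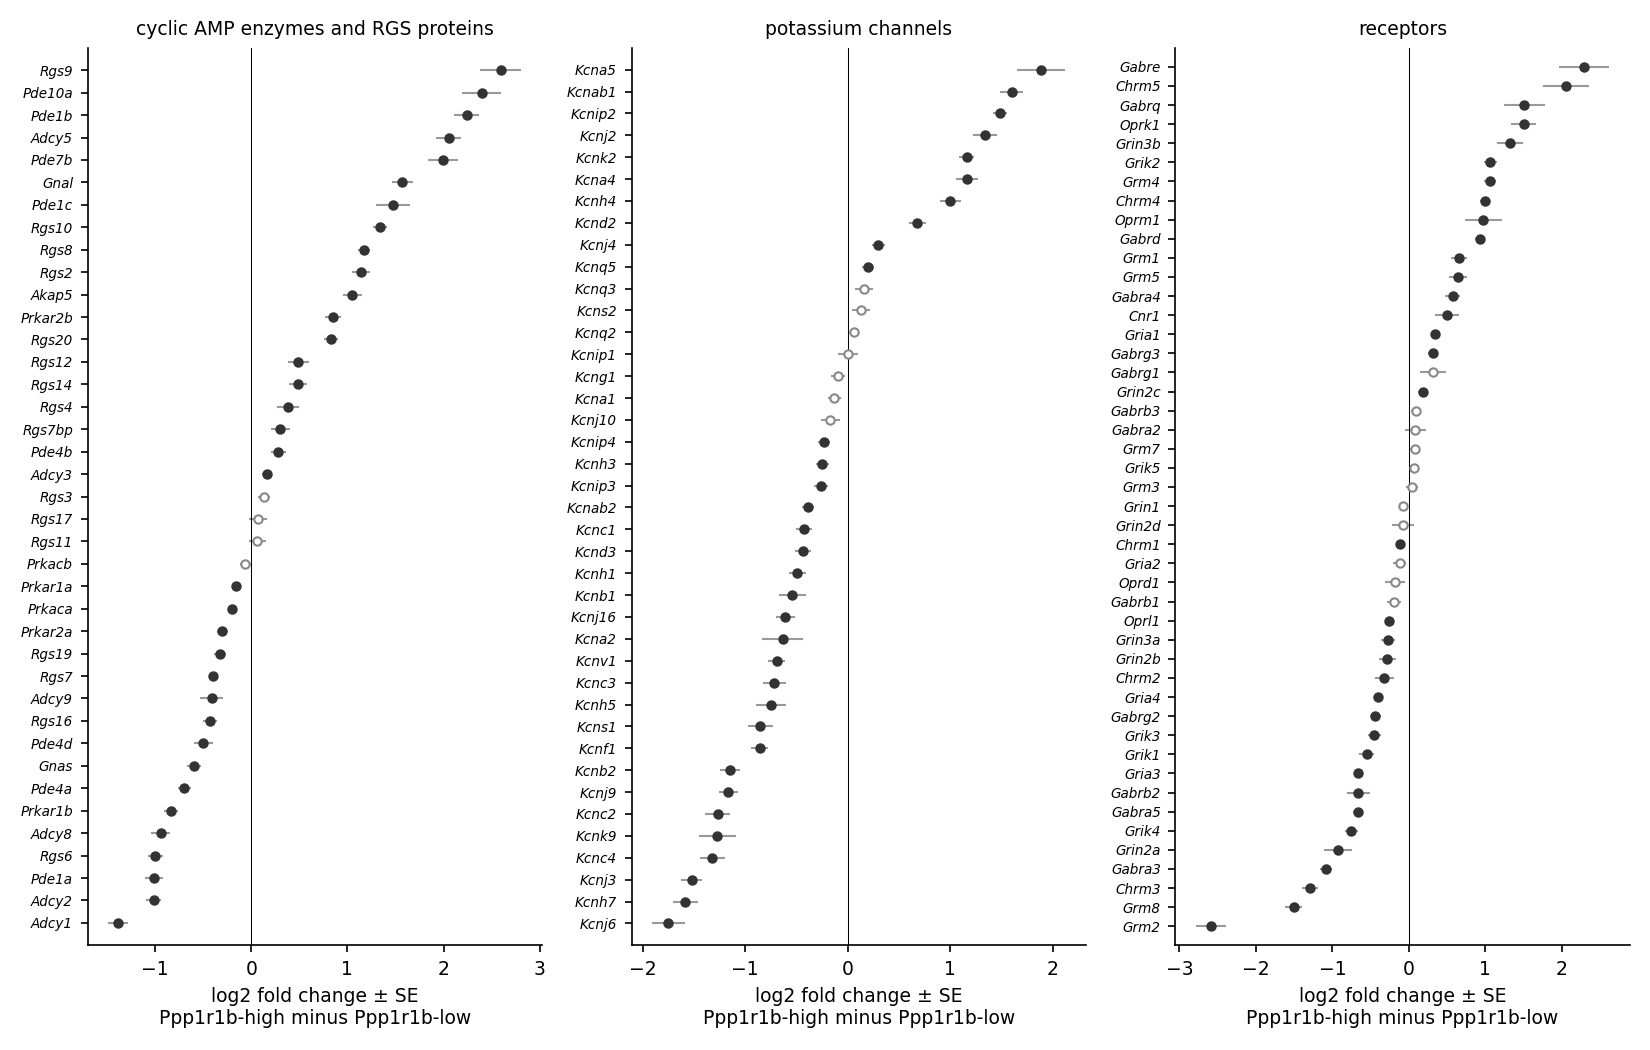
Log2 fold change of Ppp1r1b-high over Ppp1r1b-low libraries for cyclic AMP and RGS genes (left), potassium channels (middle) and receptors (right), 1 point per gene with its SE as a line, filled where the adjusted p was under 0.05; 1 gene is left out. Each panel has members on both sides of 0, such as Adcy5 at 2.05 and Adcy1 at -1.38.

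The largest differences were taken among called genes of at least 5 CPM on average, with an established symbol and the same direction in each line alone. Of these genes, the 12 with the largest positive log2 fold changes included Gpr101, Fgf3, Ptpn7, Lrrc10b, Slc10a4, Adora2a, Ido1, Slc18a3, Clic6, Dlk1 and Chat, and the 12 lay at 3.01 to 3.45. The ranges of Gpr101 and Dlk1 overlapped and those of the other 10 did not. Lrrc10b, a leucine-rich repeat gene, ran from 102 to 402 CPM (median 201) in the Ppp1r1b-high libraries and from 2.14 to 35.5 CPM (median 20.9) in the Ppp1r1b-low libraries. Fgf3, a fibroblast growth factor, ran from 5.54 to 19.1 CPM (median 8.61) in the Ppp1r1b-high libraries and from 0.171 to 1.82 CPM (median 0.913) in the Ppp1r1b-low libraries. All 12 rose with Ppp1r1b in the middle libraries.

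By the same rule, the 12 with the largest negative log2 fold changes were Hkdc1, Adra1d, Krt80, Adcyap1, Trbc2, Grm2, Myl4, Ovol2, Stab2, Tnnc1, Kcnk4 and C1ql3, at -2.98 to -2.2. Adcyap1, the neuropeptide PACAP, ran from 0.405 to 17.6 CPM (median 3.75) in the Ppp1r1b-high libraries and from 18.3 to 47.2 CPM (median 29.9) in the Ppp1r1b-low libraries. C1ql3, a secreted synaptic organiser, ran from 6.45 to 38.9 CPM (median 24.4) in the Ppp1r1b-high libraries and from 66.5 to 168 CPM (median 107) in the Ppp1r1b-low libraries. The sets did not overlap for these, while Adra1d, an alpha-1 adrenergic receptor, ran from 0.797 to 9.23 CPM (median 3.75) in the Ppp1r1b-high libraries and from 7.39 to 39 CPM (median 26) in the Ppp1r1b-low libraries. All but Stab2 fell with Ppp1r1b in the middle libraries, though Krt80 was not called with sheet set and sex as terms (edgeR adjusted p = 0.0883). Stab2, a scavenger receptor of sinusoidal endothelium, had a slope of 0.55 (SE 0.87, edgeR adjusted p = 0.689), and it ran from 0.54 to 14 CPM (median 1.44) in the Ppp1r1b-high libraries and from 0.456 to 54.7 CPM (median 2.89) in the Ppp1r1b-low libraries. Reads of Kcnk4 cannot be separated from those of Catsperz, which overlaps it on the same strand.

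The difference between the sets was next compared between the lines. In a model with the interaction of set and line, 0 of 17131 tested genes (0.0%) had an adjusted p under 0.05 (edgeR), and 1541 had an unadjusted p under 0.05. The lowest adjusted p was 0.550, shared by Alas1, Nyap1, Med21, Gm3294 and Pigo. Alas1, the first enzyme of heme synthesis, had a log2 fold change between the sets of -0.39 in Low Drinker mice, and the High Drinker change was above it by 0.31 (SE 0.08). The smallest groups held 8 and 9 mice, so a p that misses the threshold does not show that the lines are alike.

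The level of Ppp1r1b also bears on the comparison of the lines over all 84 libraries. Between High Drinker and Low Drinker mice, 1057 of 16536 genes (6.39%) differed with log2 Ppp1r1b CPM as a term, and 645 (3.9%) without it (edgeR). Both fits also held sheet set and sex as terms. All 645 were among the 1057 with the same direction, and 412 were gained. Of the 1404 genes at least 2-fold apart between the sets, 1322 were tested for line, and of these 37 (2.80%) were called for line with the term and 13 (0.983%) without it. Without the 5 libraries that stood apart, the counts over all genes were 627 with the term and 424 without it.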

How the data were processed

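The deposited values are raw counts of reads per gene for 84 mice, with 43629 genes and 0 columns that match no sample; the authors' count table has the columns of a featureCounts output. FastQC, STAR, featureCounts (Subread), edgeR and build mm10 appear in the submitters' processing notes, and no version, strand or multi-mapping setting is named in the sources used here. Per the labels' protocols the cDNA was amplified and read from 1 end, so duplicate reads of a molecule count more than once and strand is not marked. Totals ran from 22190363 to 41300401 per library. Replicates are separate mice with 1 library each, so p-values measure the spread between libraries. Mouse, dissection and library preparation cannot be told apart in that spread.

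The members and lists were chosen with earlier results of these data known. The 38 lists hold 472 entries for 458 genes, so some genes, such as Cartpt, count in more than 1 list. Of the 458 genes, 443 were tested and 3 (Gpr52, Ctgf and Pde2a) are not analysed here. Results of some genes are not reported here. Fits used edgeR 4.0.16 in R 4.3.3 with TMM factors, filterByExpr, the quasi-likelihood F-test and Benjamini-Hochberg adjustment over all tested genes at 0.05, and DESeq2 1.42.0 was an alternative. Ppp1r1b was left out of every fit, and the scripts were tested on simulated counts. CPM uses library totals, and fold changes use TMM factors. Genes were named by rule: the markers, the 12 largest differences in each direction, up to 4 called members of a list with the largest differences, 5 interaction genes, and members that show what a list's other members did. The 12 were taken among called genes of at least 5 CPM on average, with an established symbol and the same direction in each line alone. Some members described beside these, such as Rgs9, Eya1, Sst and Npy, were chosen with their values seen. Of 155 genes looked up, exons of 8 overlap another gene on the same strand and of 33 on the opposite strand (Penk, Grm2, C1ql3, Adra1d and Tagln among them), and their reads cannot be separated. Alternatives changed normalization, filter, covariates, tool, ranking, number of libraries a side and the mice used. Tables and plots used Python 3.11.15, pandas 2.3.3, scipy 1.17.1 and matplotlib 3.10.9.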

Additional observations from a re-analysis of the deposited data

Results flagged for a closer look

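Low Drinker 8, a Ppp1r1b-high library, lay far from the other 7 Low Drinker animals of that set (gap to the nearest library over the range of the group) in 7 list sums. It was high for choroid plexus and ependyma at 198.7 CPM against 73.7 in the next library, for hypothalamus at 49.7 against 16.99, for septal nuclei at 92.4 against 46.6, and for oligodendrocytes at 11470 against 7530 CPM. It was low for deep cortical layers at 435.4 against 536.0, for GABA-A subunits at 1043 against 1426, and for potassium channels at 3977 against 4779 CPM. The hypothalamic peptides Avp and Oxt stood at 10.1 and 23.4 CPM in it. Low Drinker 1, of the same set, was high for the hippocampal list at 405.5 against 225.7 CPM and for general GABAergic genes at 2352 against 2029 CPM. Among the 9 Ppp1r1b-low High Drinker animals, High Drinker 5 was high for meningeal genes at 687.4 against 344.9 CPM and low for oligodendrocyte precursors at 182.0 against 222.1 CPM, and High Drinker 24 was low for oxidative phosphorylation at 6012 against 6477 CPM. In all, 76 groups were looked at, the 38 lists in the sets of 8 and of 9 libraries, and chance alone puts about 1 in 20 in this list. The 13 Ppp1r1b-high High Drinker, the 12 Ppp1r1b-low Low Drinker and the middle libraries were not screened, so these need not be the only outlying libraries.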

How the results depend on the processing

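The count of 10067 genes that differed between the sets ranged from 7383 to 11276 over the alternatives run, apart from females alone (5901, with 10 Ppp1r1b-high and 6 Ppp1r1b-low libraries); DESeq2 gave 10149 and sheet set 1 alone 8557. The count at least 2-fold apart, 1404, was 2875 with no filter on low counts, where 30114 genes were tested. Middle slopes were called for 2544 genes in sheet set 1 alone and 2267 in sheet set 2 alone, against 4928, both chosen after seeing the data, with fewer libraries. The interaction gave 0 calls under every alternative run. Line calls without the libraries that stood apart were 627 with the Ppp1r1b term and 424 without it. Over 155 named genes, 1904 fold changes kept direction and side of the threshold, 106 lost the call, 1 gained it and 2 reversed, both in High Drinker animals alone: Gm3294 (0.10) and Med21 (-0.15). The middle slope of Stab2, not called, reversed in sheet set 1 alone (-0.47) and sheet set 2 alone (-0.57); the cause was not tested. Summed levels moved by less than 1 SD with TMM scaling in all 76 cases. The comparison of the sets within sheet set 2 was not run, since it holds 2 Ppp1r1b-high libraries, and no middle library was among the 5 set apart by correlation; without High Drinker 11, an alternative added after seeing the data, 4906 middle slopes were called. No paired analysis was possible because replicate numbers were given in accession order and pair no animals.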
